A study of Homo sapiens with 15 samples.

Results

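The ZNF genes of human chromosome 19 are the densest collection of C2H2 zinc finger genes in the genome. They were taken here as the protein-coding GENCODE genes on that chromosome whose symbol is ZNF, a number and at most 1 letter, which gave 246 of 19820 protein-coding genes. The rule used no measured value. They were compared with 262 ZNF genes on other chromosomes chosen by the same form of symbol, with the 1190 other protein-coding genes of chromosome 19, and with all 19574 other protein-coding genes. G-quadruplexes, folded structures of stacked guanine tetrads, had been mapped in asynchronously growing K562 cells, an established line from a chronic myelogenous leukaemia, by chromatin immunoprecipitation with the antibody BG4. All 5 libraries were of untreated, unmodified cells of this 1 line. Libraries 1a and 1c belonged to biological replicate 1, and libraries 2a, 2b and 2c to replicate 2. There was 1 peak list per library, of 8059 to 12495 peaks, and 1 list of 8955 high-confidence regions, which equalled the bases that 3 or more of the 5 peak lists share. Inside the lists of 2a and 2c the peak names bear the letter of the other library. Values are given here by the sample labels and could be exchanged between these libraries. Read depth is unknown, and the 2 input libraries and the methylation libraries of the series, made from control and entinostat-treated HaCaT keratinocytes, were not analysed here.

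C2H2 zinc finger proteins bind DNA through tandem fingers, each of which reads a few bases. Most of those encoded on chromosome 19 also carry a KRAB box, which recruits the corepressor TRIM28 (KAP1) and through it the histone methyltransferase SETDB1 and HP1 proteins. Many of these factors silence transposable elements. The genes arose by repeated tandem duplication and lie in clusters of related copies, and their start sites commonly sit in CpG islands, the CpG-rich stretches found at many promoters.

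Sequences from 7 start sites show what the BG4 regions looked like and how they differed. They are from hg19 (GRCh37), in the direction of the gene, with at most 30 bases of annotated UTR. Those of ZNF787, ZNF846, ZNF701 and ZNF146 held a canonical G4 motif, and capitals mark every base within a match, overlapping matches included. The motif was made of 4 G runs, each of at least 3 bases, parted by loops of 1 to 7 bases, or the same in C when the G-rich strand was the other one. Those of ZNF320 and ZNF254 had a high-confidence region but no motif, and ZNF506 had no peak in any library. In these last 3 the capitals mark every run of 3 or more G or C.
ZNF787 (chr19:56632635-56632934, minus strand, part of the region): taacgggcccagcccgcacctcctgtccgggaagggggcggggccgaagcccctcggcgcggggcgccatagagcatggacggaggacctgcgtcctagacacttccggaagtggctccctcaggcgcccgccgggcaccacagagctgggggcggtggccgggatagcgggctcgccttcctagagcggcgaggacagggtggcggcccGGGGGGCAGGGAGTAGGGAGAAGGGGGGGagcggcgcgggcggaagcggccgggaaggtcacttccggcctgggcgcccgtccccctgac
ZNF846 (chr19:9896286-9896561, minus strand, the whole region): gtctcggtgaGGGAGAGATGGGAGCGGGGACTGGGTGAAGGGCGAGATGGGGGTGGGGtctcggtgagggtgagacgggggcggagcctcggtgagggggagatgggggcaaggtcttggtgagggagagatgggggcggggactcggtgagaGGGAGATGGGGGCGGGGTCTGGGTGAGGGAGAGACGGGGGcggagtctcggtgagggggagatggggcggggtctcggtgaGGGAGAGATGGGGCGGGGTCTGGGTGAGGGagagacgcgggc
ZNF701 (chr19:53073396-53073555, plus strand, part of the region): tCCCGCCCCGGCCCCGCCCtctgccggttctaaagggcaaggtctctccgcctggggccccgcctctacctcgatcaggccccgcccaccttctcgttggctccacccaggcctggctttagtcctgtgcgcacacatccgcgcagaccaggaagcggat
ZNF146 (chr19:36705429-36705533, plus strand, part of the region shared with ZNF565): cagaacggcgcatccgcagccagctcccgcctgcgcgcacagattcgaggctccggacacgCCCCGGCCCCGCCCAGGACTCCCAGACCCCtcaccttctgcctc
ZNF320 (chr19:53400917-53401067, minus strand, part of the region): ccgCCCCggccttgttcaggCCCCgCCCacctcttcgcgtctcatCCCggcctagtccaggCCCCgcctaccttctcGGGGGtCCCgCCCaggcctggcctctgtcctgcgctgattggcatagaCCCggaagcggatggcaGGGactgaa
ZNF254 (chr19:24269819-24269991, plus strand, part of the region): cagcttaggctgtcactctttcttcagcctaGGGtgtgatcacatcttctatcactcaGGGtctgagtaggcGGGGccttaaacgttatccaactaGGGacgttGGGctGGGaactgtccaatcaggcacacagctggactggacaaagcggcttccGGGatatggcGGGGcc
ZNF506 (chr19:19932530-19932710, minus strand, no peak): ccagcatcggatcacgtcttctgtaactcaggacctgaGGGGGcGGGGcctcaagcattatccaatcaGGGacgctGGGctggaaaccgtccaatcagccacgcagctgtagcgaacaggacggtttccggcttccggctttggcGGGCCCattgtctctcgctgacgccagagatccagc

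The ZNF787 stretch had a GC content of 75% and 25 runs of 3 or more G or C, with its motif on the coding strand. The ZNF846 stretch was a tandem array of a G-rich unit within an intron, with 29 runs, and 118 of its 276 bases fell in motifs. In ZNF701 and ZNF146 the G-rich strand was the template. ZNF254 and ZNF506, both of the same cluster, aligned with 76.9% identity over 143 columns. The ZNF254 stretch had a GC content of 55.5%, 8 runs and a peak in all 5 libraries. The ZNF506 stretch had a GC content of 60.8%, 6 runs and no peak.

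The first comparison asked how often these genes had a BG4 region at a start site. The share was lower than in each group they were set against, in every library. A high-confidence region lay within 1 kb of a start site in 69 of the 246 chromosome 19 ZNF genes (28.0%, 95% Wilson interval 22.8 to 34.0), against a background of 34.8% over all protein-coding genes and 43% over all genes of chromosome 19. The share was 45.4% (39.5 to 51.5) in ZNF genes on other chromosomes and 46.1% (43.2 to 48.9) in the other genes of chromosome 19. The difference from the other chromosome 19 genes was −18.0 percentage points, that from ZNF genes elsewhere −17.4, and that from all other genes −6.87. The intervals hold counting error alone, and genes of a cluster are not independent.

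A peak lay within 1 kb of a start site in 84 chromosome 19 ZNF genes in library 1a (34.1%), against 38.5% of all genes. In library 1c it was 63 (25.6%, background 32.6%), and in library 2a 70 (28.5%, background 31.9%). Libraries 2b and 2c had 80 (32.5%, background 35.5%) and 89 (36.2%, background 39%). Every library thus placed the chromosome 19 ZNF genes below the background. The mean over biological replicates was 31.1% ± 1.77 (SD, n = 2).

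Over the 5 libraries, chromosome 19 ZNF genes had a peak less often than other chromosome 19 genes by differences of −21.0 to −12.7 percentage points, with a mean difference over biological replicates of −16.3 ± 4.20 (SD, n = 2). From ZNF genes on other chromosomes the mean difference was −18.0 ± 1.64, and from all other genes −4.45 ± 1.87 (SD, n = 2 each). All 3 differences were below 0 in 5 of 5 libraries. An exact two-sided permutation test over the 32 sign changes of the 5 library differences gave p = 0.0625 for each, which is the smallest this design allows, so none could pass 0.05. Technical libraries of 1 replicate are not independent, and p-values over libraries measure the spread between libraries only.

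**Figure D1:**
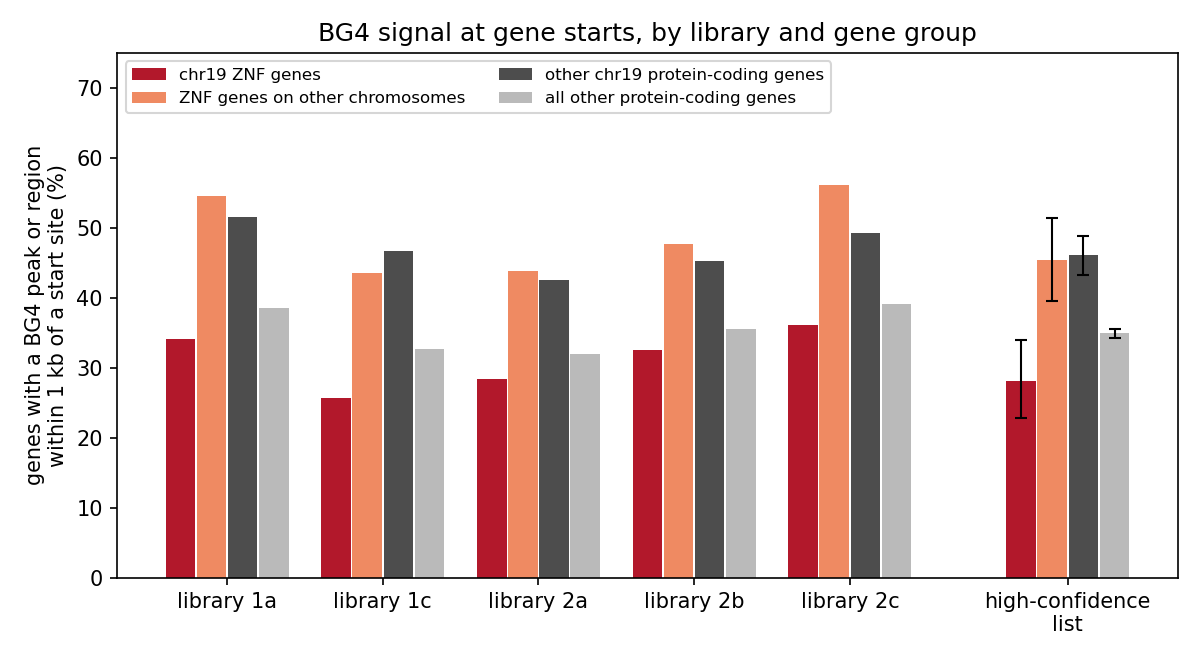
Share of genes (%) with a BG4 peak within 1 kb of a start site in each of the 5 libraries, and with a high-confidence region, for 4 gene groups. Error bars are 95% Wilson intervals and are drawn for the high-confidence list. The chromosome 19 ZNF genes, at 25.6% to 36.2%, are the lowest bar in every library.

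Peaks at these genes were also shared by fewer libraries. A peak in no library was found at 123 members (50%, background 52.3%), and a peak in 1 or 2 libraries at 53 (21.5%, background 12.1%). A peak in all 5 libraries was found at 42 (17.1%, background 23.1%). Of the 123 members with a peak in any library, 34.1% (26.4 to 42.9) had it in all 5, against 49.7% (42.4 to 57.0) of ZNF genes elsewhere and 60.9% (57.2 to 64.5) of other chromosome 19 genes. The remaining 28 members had a peak in 3 or 4 libraries. All but ZNF699 of the 70 members with a peak in at least 3 libraries had a high-confidence region, and the peaks of ZNF699 did not cover the same base in 3 lists. Peaks at 35 members came from replicate 2 alone, at 12 from replicate 1 alone and at 76 from both. Replicate 2 had 3 libraries and replicate 1 had 2, and over all genes these counts were 1189, 803 and 7457.

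The second comparison asked how the start sites themselves differed. A strict CpG island (any window of 500 bp with a GC fraction no lower than 0.55 and an observed to expected CpG ratio no lower than 0.65) lay within 1 kb of a start site in 226 of the 246 members (91.9%, 87.8 to 94.7), against 73.5% (70.95 to 76.0) of other chromosome 19 genes. Among genes with such an island, 29.6% (24.1 to 35.9) of the members had a region, against 61.1% (57.9 to 64.3) of the other chromosome 19 genes and 48.7% (42.4 to 55.1) of ZNF genes elsewhere. The members' promoters had a median GC content of 50.6%, against 52.5% in ZNF genes elsewhere and 57.7% in other chromosome 19 genes. A G4 motif on either strand lay within 1 kb of a start site in 65.4% of the members, against 85.8% of other chromosome 19 genes and 73.4% of all other genes. Members thus had islands in a larger share than their chromosomal neighbours, at promoters of lower GC content that held a motif in a smaller share.

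Within each band of promoter GC content the intervals of the members and of their chromosomal neighbours overlapped. Below 50% GC the share was 13.0% (15 of 115 members, 8.07 to 20.4), against 10.9% of other chromosome 19 genes. From 50 to 55% it was 27.03% (20 of 74, 18.2 to 38.1) against 33.2%, and from 55 to 60% it was 52.4% (22 of 42, 37.7 to 66.6) against 51.5%. At 60% and over it was 80.0% (12 of 15, 54.8 to 93.0) against 58.3%. Set against all other protein-coding genes, the members were lower below 50% GC, where those genes had 23.8% (22.9 to 24.8). They were higher at 60% and over, where those genes had 44.7% (43.1 to 46.3). In these bands the intervals did not overlap, while from 50 to 60% GC they did. ZNF genes on other chromosomes had a region in 35.2% (26.1 to 45.4) below 50% GC and in 42.1% (31.6 to 53.3) from 50 to 55% GC. Below 50% GC the intervals of the ZNF genes on chromosome 19 and elsewhere did not overlap. No test across replicates was made within the bands.

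**Figure D2:**
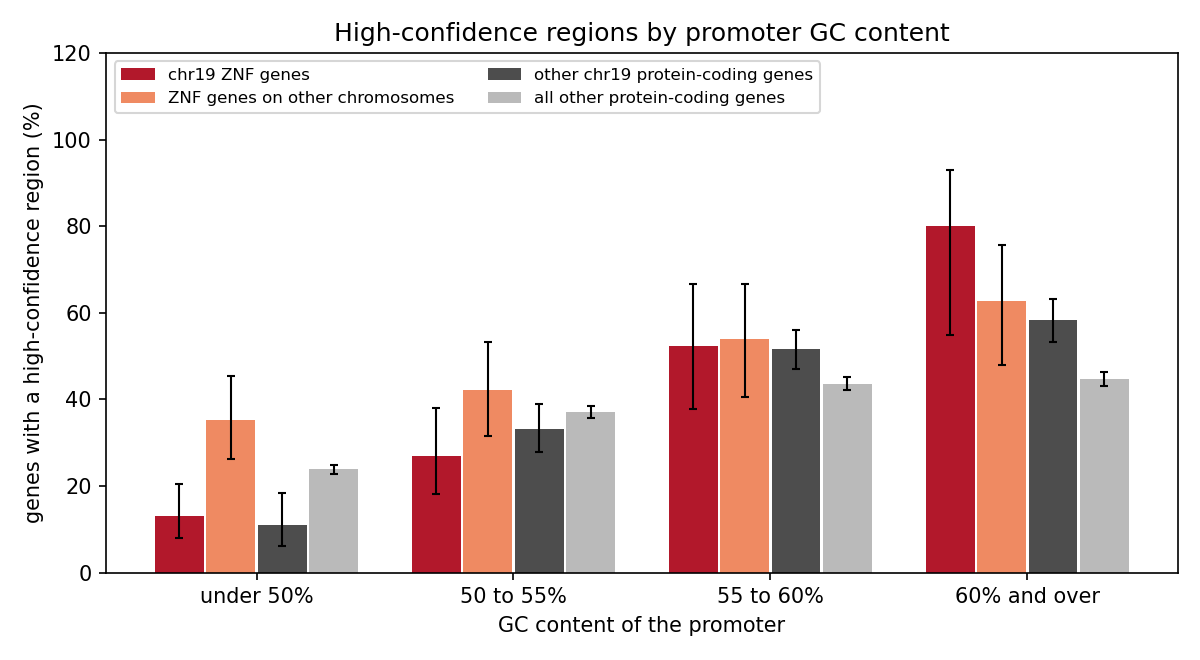
Share of genes (%) with a high-confidence region in 4 bands of promoter GC content, for the chromosome 19 ZNF genes, ZNF genes on other chromosomes, other chromosome 19 genes and all other genes, with 95% Wilson intervals. The chromosome 19 ZNF bars climb from 13.0% to 80.0% across the bands, close to the other chromosome 19 genes in the lower 3.

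The third comparison set the clusters against each other. Members less than 500 kb apart were joined, which gave 10 clusters of at least 5 genes that held 232 members, with 14 members outside them. In order along the chromosome, the cluster from ZNF554 to ZNF77 had a region at 4 of 5 genes (80.0%), and that from ZNF414 to ZNF846 at 3 of 13 (23.1%). The cluster from ZNF653 to ZNF490 had one at 12 of 25 (48.0%, 30.03 to 66.5), and that from ZNF101 to ZNF254, the last before the centromere, at 5 of 37 (13.5%, 5.91 to 28.0). These last 2 are the extremes among the clusters of more than 20 genes.

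On the long arm, the cluster from ZNF302 to ZNF792 had a region at 1 of 5 genes, ZNF30, and that from ZNF146 to ZNF573 at 5 of 26 (19.2%). The cluster from ZNF575 to ZNF180 had one at 5 of 23 (21.7%), and that from ZNF175 to ZNF331 at 11 of 39 (28.2%, 16.5 to 43.8). The cluster from ZNF628 to ZNF835 had one at 7 of 16 (43.8%, 23.1 to 66.8), and that from ZNF264 to ZNF446, which reaches almost to the chromosome end, at 9 of 43 (20.9%, 11.4 to 35.2). Of the 14 members outside clusters 7 had a region (50%, 26.8 to 73.2), against 62 of the 232 in clusters (26.7%, 21.4 to 32.8).

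**Figure D3:**
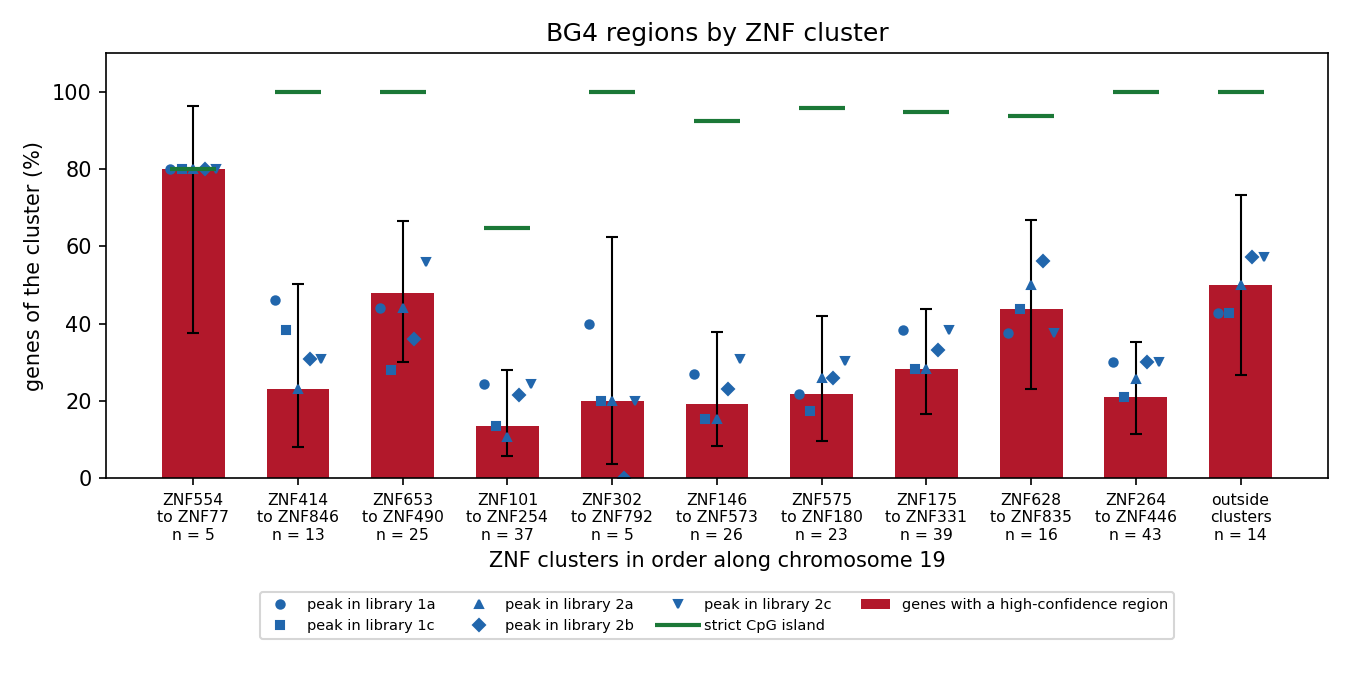
Share of genes (%) with a high-confidence region (bars, with 95% Wilson intervals), with a peak in each library (blue points) and with a strict CpG island (green lines), for the 10 ZNF clusters in order along chromosome 19 and for the members outside them. The bars run from 13.5% in the cluster from ZNF101 to ZNF254, where the island line is also lowest at 64.9%, to 80.0% in the 5 genes from ZNF554 to ZNF77.

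The ZNF101 to ZNF254 cluster (chromosome 19, 19779605 to 24312770) differed from the others in its start sites as well. It had a strict island at 24 of 37 genes (64.9%), against 80.0% to 100% in each of the others. Its genes with a strict island had a region at 3 of 24 (12.5%), near the 13.5% of the whole cluster. A median of 23.9% of the 31-base words of its promoters occurred elsewhere in the genome too, against 11.9% over all members. Reads from such repeated sequence may be placed at another copy or dropped, and the part of this in the low share was not tested. Over all members the repeated share differed little by outcome, at a median of 10.6% with a region and 12.8% without one. Peaks were absent from 23 of the 37 genes, and 9 had a peak in 1 or 2 libraries.

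Its 5 genes with a region were ZNF101, ZNF93, ZNF430, ZNF431 and ZNF254, and ZNF254 alone had a peak in all 5 libraries. Fold enrichment of the strongest peak at ZNF254, with the library in brackets, was 5.76 (1a), 7.32 (1c), 4.94 (2a), 5.35 (2b) and 7.74 (2c). These folds lay between percentiles 12.4 and 77.0 of their lists. At ZNF93, which encodes a repressor of LINE-1 elements, it was 7.29 (1a), 3.93 (2a), 5.47 (2b) and 4.70 (2c), with no peak in 1c. ZNF91, known as a repressor of SVA elements, had no peak. Both are named here for their known roles, outside the naming rule.

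The ZNF653 to ZNF490 cluster (chromosome 19, 11594242 to 12750912) had a strict island at 25 of 25 genes and a median promoter GC content of 54.7%, against 48.4% in the ZNF101 to ZNF254 cluster. The share of genes with a peak was higher than in the ZNF101 to ZNF254 cluster in 5 of 5 libraries, by 14.4 to 33.2 percentage points. The pair was picked for its values among 15 pairs of clusters of at least 23 genes, so no p is given. Many of its regions rested on few libraries, as 5 of its 12 genes with a region had a peak in all 5. Where a library was left out, a region still needed 3 lists, so regions could only be lost. The difference in regions, 34.5 percentage points, became 22.5 without library 1a, 18.5 without 2a, 22.5 without 2b and 14.5 without 2c. It stayed at 34.5 without 1c. It was 17.3 with regions of all 5 libraries, where 20% of the first and 2.70% of the second cluster had one. Its best ranked gene was ZNF627, with folds of 12.8 (1a), 7.36 (1c), 8.88 (2a), 8.20 (2b) and 9.52 (2c). ZNF627 shares its start with ELOF1 on the other strand, an elongation factor gene.

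Split by promoter GC content, several clusters showed a contrast within themselves. In the ZNF575 to ZNF180 cluster 4 of 5 genes at 50% GC or more had a region, against 1 of 18 below. In the ZNF414 to ZNF846 cluster it was 3 of 5 against 0 of 8, and in the ZNF264 to ZNF446 cluster 9 of 33 against 0 of 10. In the ZNF653 to ZNF490 cluster it was 11 of 20 against 1 of 5. The ZNF175 to ZNF331 cluster had 7 of 16 against 4 of 23, and the ZNF628 to ZNF835 cluster 6 of 13 against 1 of 3. The ZNF554 to ZNF77 cluster had no gene below 50% GC. The ZNF146 to ZNF573 cluster was even, with 2 of 10 at 50% or more and 3 of 16 below. In the ZNF101 to ZNF254 cluster it was 2 of 9 against 3 of 28, and in the ZNF302 to ZNF792 cluster the order was the other way round, with 0 of 4 against 1 of 1.

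Of the 10 members that came first by their lowest fold percentile over the 5 lists, 6 had no KRAB box match. The same held for 15 of the 42 members with a peak in all 5 libraries, from which the 10 were ranked. A member outside the 10 can have a stronger peak in a single library, as ZNF557 had at percentile 99.5 of library 1c. Ranked by the lowest percentile of fold enrichment over the 5 lists, the first 10 were ZNF787, ZNF574, ZNF8, ZNF846, ZNF701, ZNF576, ZNF526, ZNF320, ZNF414 and ZNF524. Of these ZNF8, ZNF846, ZNF701 and ZNF320 had a KRAB box match. A fold is the authors' own value for the height of a peak over its local background. Apart from a check for outlying libraries, it was compared only within a list. The fold given for a gene is that of its strongest peak within 1 kb of a start site. The coordinates given are those of its region in the most libraries, then the widest. Where a gene has several regions, that peak need not lie in the region given.

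At ZNF787 (region 56632622 to 56633080, covering a start site and UTR) fold enrichment was 12.8 (1a), 9.69 (1c), 11.9 (2a), 10.1 (2b) and 12.2 (2c). Each of these values lay at or above percentile 87.2 of its list, the highest such floor among the members. At ZNF574 (42579946 to 42580393) it was 15.1 (1a), 11.9 (1c), 9.06 (2a), 8.20 (2b) and 10.2 (2c). At ZNF8 (58790003 to 58790401, covering its single start site) it was 16.9 (1a), 8.48 (1c), 11.4 (2a), 7.81 (2b) and 8.10 (2c). ZNF8 stood at percentile 99.3 in library 1a and at 77.9 in library 2b. At ZNF846 (9896286 to 9896561, in an intron) it was 9.45 (1a), 8.13 (1c), 10.4 (2a), 9.74 (2b) and 8.45 (2c). At ZNF701 (53073396 to 53073563) it was 8.65 (1a), 9.20 (1c), 10.1 (2a), 9.25 (2b) and 12.4 (2c). By percentile within the list, the replicates overlapped at ZNF787 and ZNF8, while both libraries of replicate 1 lay above those of replicate 2 at ZNF574 and below them at ZNF846 and ZNF701.

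ZNF576 (44100201 to 44100573) had folds of 8.40 (1a), 7.75 (1c), 11.9 (2a), 8.88 (2b) and 8.16 (2c). ZNF526 (42724264 to 42724493, a start shared with DEDD2) had 13.2 (1a), 10.2 (1c), 7.88 (2a), 12.5 (2b) and 9.15 (2c). ZNF320 (53400881 to 53401067), whose region had no motif, had folds from 7.22 to 11.2. The strongest peaks at these genes stood in the upper part of every list, at or above percentile 68.4. ZNF414 (8578502 to 8578826, in an intron) had folds from 7.21 to 11.997, and ZNF524 (56110376 to 56110716, outside the gene) from 7.18 to 12.7. This ZNF524 region lay upstream, 672 bp from the nearest ZNF524 start site, and was also within 1 kb of a start of FIZ1. ZNF414 had 3 regions. A further region of ZNF524 with peaks in all 5 libraries (56111557 to 56111729) covered a start site of the gene. The first gene along the chromosome, ZNF554, had a region in all 5 libraries with folds from 5.18 to 7.98, and the last, ZNF446, one with folds from 7.21 to 9.84.

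**Figure D4:**
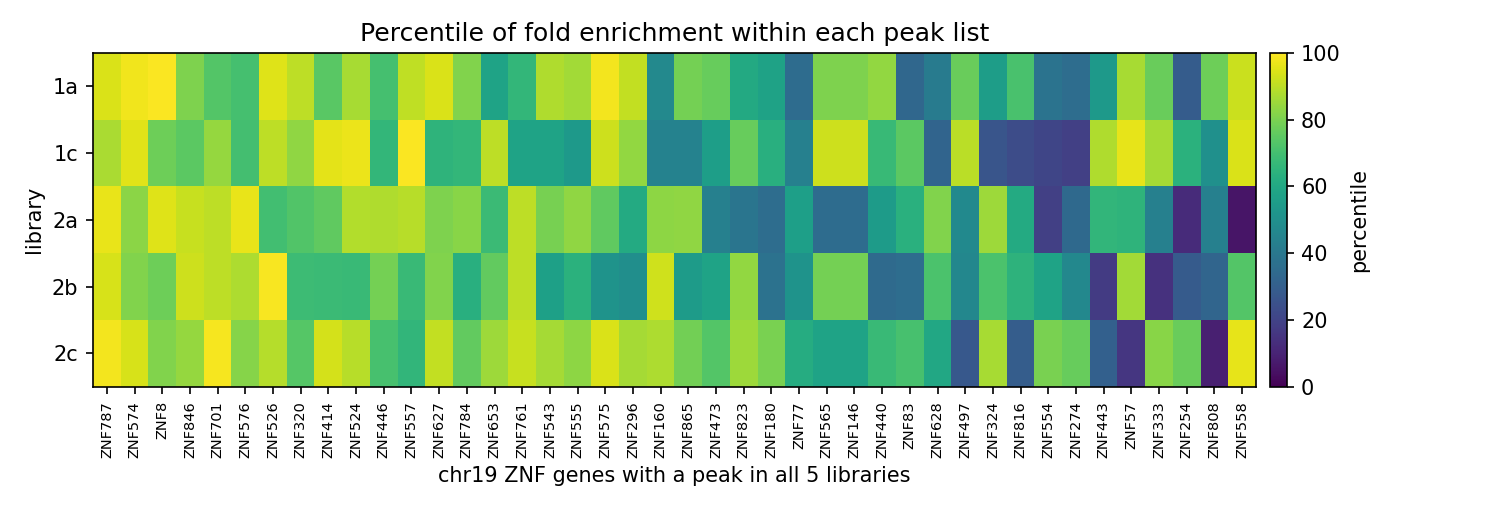
Percentile of fold enrichment within each peak list (colour, 0 to 100) for the 42 chromosome 19 ZNF genes with a peak in all 5 libraries, with genes ordered by their lowest percentile and libraries in rows. ZNF787 stays at or above percentile 87.2 in every library, while genes at the right end, such as ZNF808, reach down to percentile 8.72 in a single library.

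As a whole the members' peaks were of middling strength. Their median percentile of fold enrichment was 58.0 (1a), 57.9 (1c), 51.3 (2a), 51.2 (2b) and 49.2 (2c). Peaks at all protein-coding start sites had medians of 60.03, 59.98, 53.6, 53.9 and 55.6 in the same libraries. The members' median was lower in 5 of 5 libraries and averaged 54.3 ± 5.22 against 57.2 ± 3.997 at all start sites (SD, n = 2 each).

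Members without any peak were found in each of the 10 clusters. ZNF556 had no peak and is the next member after ZNF555, whose folds ran from 6.75 to 10.4. Promoter GC content was 66.7% at ZNF555 and 53.1% at ZNF556. In the other clusters the first gene by position with no peak was ZNF317, ZNF491, ZNF506, ZNF302, ZNF382, ZNF404, ZNF577, ZNF579 and ZNF264. ZNF404 had the lowest promoter GC content of all members, 37.4%. ZNF264 (57.8%) and ZNF579 (59.5%) had no peak at GC contents where most members had a region. Of these first genes without a peak, ZNF556, ZNF506, ZNF404 and ZNF579 also lacked a strict island. Among all members without a strict island, 2 of 20 had a region. ZNF331, an imprinted gene named here for that role, had no peak at 55.6% GC.

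The fourth comparison set kinds of members side by side. These splits were chosen after the regions were known. No match to the KRAB A box was found in the translated coding sequence of 33 members, of which 18 had a region (54.5%, 38.0 to 70.2), against 51 of the 213 with a match (23.9%, 18.7 to 30.1). The share with a peak was higher in the genes without a match in 5 of 5 libraries, at 51.5% to 63.6% against 21.1% to 33.8%. Their promoters had a median GC content of 56.9%, against 49.9% in those with a match. Below 50% GC a region was present at 0 of 3 genes without a match and 15 of 112 with one, and from 50 to 55% at 4 of 10 and 16 of 64. From 55 to 60% it was 6 of 9 against 16 of 33, and at 60% and over 8 of 11 against 4 of 4. Within these bands the genes without a match were too few to place the difference. The patterns used may miss some KRAB boxes.

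A start site of another gene on the opposite strand lay within 1 kb at 26 members. Of these 14 had a region (53.8%, 35.5 to 71.2), against 55 of the 220 others (25%, 19.7 to 31.1), and the share with a peak was higher in 5 of 5 libraries. In 12 of the 14 a region lay within 1 kb of the neighbour's start as well and cannot be assigned to 1 of the genes, while at ZNF574 and ZNF529 the regions lay at another of the gene's start sites. ZNF146 and ZNF565 start back to back and shared 2 regions. The strongest peaks there had folds of 9.44 (1a), 10.8 (1c), 6.04 (2a), 7.98 (2b) and 6.48 (2c). ZNF490 and ZNF791 shared 1 region of 72 bp with folds of 4.86 (1a), 7.40 (2a) and 5.63 (2c) and no peak in the other 2 libraries. The number of fingers did not order the members, as a region was found at 37.1% of those with under 10, 20.8% of those with 10 to 14 and 29.3% of those with 15 or more, with ZNF274 left uncounted. ZNF808, with 23 fingers the largest member with a region, had folds from 4.09 to 9.19. ZNF729, with 39 the largest of all, had no peak.

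The fifth comparison described the regions. At the members' start sites lay 83 regions, of which 3 served 2 members and 15 were also within 1 kb of another gene's start. Their median width was 190 bp, against 240 bp at other chromosome 19 start sites, and their median GC content was 66.6% against 69.2%. A peak in all 5 libraries was present at 46 of them (55.4%), against 64.01% of the regions at other chromosome 19 start sites. Of the 83, 5 rested on replicate 2 alone, against 6 of 603 at other chromosome 19 start sites and 189 of 6848 at all start sites. Replicate 1, with 2 libraries, could not give a region alone. Of the members' regions 26 held a G4 motif (31.3%, 22.4 to 41.9), against 40.6% (36.8 to 44.6) at other chromosome 19 start sites and 37.3% at all start sites, so the members' interval reached both. When loops could reach 12 bases it was 48.2% of the members' regions against 55.9%. Of the 25 motif regions that could be read along 1 gene direction, 11 had the G-rich strand as coding strand, 13 as template and 1 both. A motif match describes the letters and does not show that a quadruplex formed.

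The regions lay just upstream of or on the start site. Their middle was at a median of −49 bp from the nearest start site, against −86 bp for other chromosome 19 genes, and upstream of it in 57 of 69 members (82.6%, 72.0 to 89.8) against 82.1%. The median was −43 bp for ZNF genes on other chromosomes and −69 bp for all protein-coding genes. Where a member had several regions, that in the most libraries was taken, then the widest. It covered a start site in 48 members and overlapped annotated UTR in 49. In 5 it lay in an intron and in 12 outside the gene. More than 1 kb from the protein-coding start sites used, 5 further regions overlapped member genes, in ZNF846, ZNF627, ZNF83, ZNF611 and ZNF584. That of ZNF584 covered the annotated 5′ end of the gene. By each member's nearest region, the farthest inside the 1 kb limit lay at 428 bp (ZNF653), 223 bp (ZNF557) and 216 bp (ZNF558) from a start site of the gene. Members with a nearer region had further ones at 812 bp (ZNF296), 672 bp (ZNF524), 509 bp (ZNF575) and 401 bp (ZNF808). The nearest outside the limit lay at 2956 bp (ZNF611), 3779 bp (ZNF730) and 6225 bp (ZNF625).

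**Figure D5:**
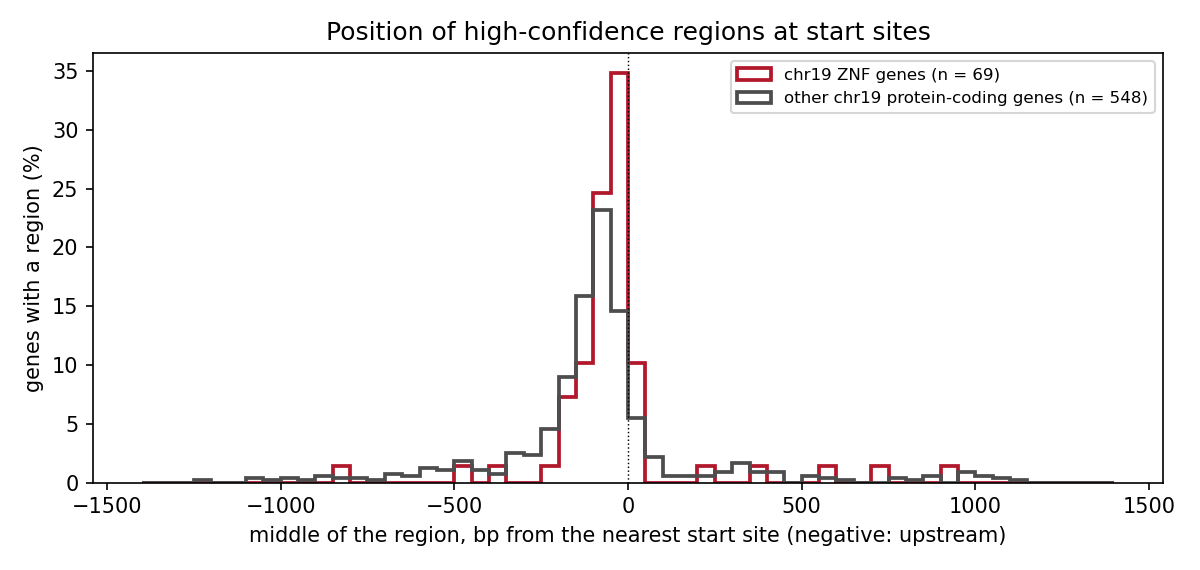
Distance (bp) of the middle of the region from the nearest start site, negative upstream, as the share (%) of genes with a region in bins of 50 bp, for the 69 chromosome 19 ZNF genes and the 548 other chromosome 19 genes with one. Both groups peak just upstream of the start site, with medians of −49 bp and −86 bp.

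Genes of the KRAB corepressor pathway, taken as a list of 20 genes, mostly had a region. It was present at 14 of 20 (70.0%, background 34.8%). All 20 had a strict CpG island, and among all protein-coding genes with one the share was 45.4%. The list was chosen with earlier results of these data known, and a share of 20 genes is imprecise. TRIM28, the corepressor itself, lies on chromosome 19 beyond the last ZNF cluster and had a region (59055332 to 59055849) with folds of 7.53 (1a), 10.5 (1c), 10.3 (2a), 7.89 (2b) and 9.73 (2c). SETDB1, the H3K9 methyltransferase of the complex, had a region (chromosome 1, 150898639 to 150898771) that rested on 3 libraries, with folds of 9.53 (1a), 7.43 (1c) and 4.68 (2b). The best ranked of the list beside TRIM28 were MORC3, a chromatin ATPase, the SUMO gene SUMO2 and the HP1 gene CBX3. ATF7IP, a partner of SETDB1, had no peak, and CHD4 and MPHOSPH8, of the NuRD and HUSH complexes, each had peaks in 2 libraries without a region. Among the zinc finger proteins tied to this machinery, ZNF274, which recruits SETDB1 to ZNF genes, had folds of 5.996 (1a), 5.04 (1c), 5.96 (2a), 6.07 (2b) and 7.71 (2c). ZNF274 is named for its role, outside the naming rule.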

How the data were processed

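BG4 immunoprecipitates of K562 chromatin were analysed from 5 libraries. Per the submitters' processing notes, peaks were called with MACS2 on hg19. No version, settings, aligner or control is given in the sources used here. The deposited lists gave a score (10 times the −log10 p), a fold enrichment ratio, a −log10 p and a −log10 q for each peak, called per library. The deposited high-confidence list holds positions alone. Its 8955 regions were rebuilt as bases covered by at least 3 of 5 lists, and the 8940 regions off the mitochondrial chromosome were used.

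Protein-coding transcripts of GENCODE release 44, lifted to GRCh37, gave the start sites. A promoter was every base within 1 kb of one. Shares have 95% Wilson intervals. Percentiles were ranks of the deposited fold within its own list. Technical libraries of 1 replicate were averaged first, which leaves n = 2 for each SD. Fingers and KRAB A boxes were counted by pattern in translated coding sequences. Python 3.11.15, pandas 2.3.3, scipy 1.17.1 and pysam 0.24.0 were used, and the overlap code was tested on simulated data.

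The genes named by rule were the 10 members with the highest lowest percentile over the lists, the best member and the first member without a peak of each cluster, members that shared a region, those whose nearest region was near the 1 kb limit (none within 250 bp of it), a corepressor list, the members with most fingers, and the first and last member. The members and lists were chosen with earlier results of these data known. Alternatives covered the peak threshold, list length, libraries required, window, start sites, cluster gap, motif, island and each library left out.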

Additional observations from a re-analysis of the deposited data

Results flagged for a closer look

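Values over the 5 libraries were checked for a sample apart from the rest in 45 measures, namely cluster and class shares, fold enrichment at named genes, differences of shares and the median percentile. Chance marks about 1 in 20 such sets, and 1 was marked here. Fold enrichment at ZNF576 was 11.9 in library 2a, with the next highest library at 8.88 and the lowest at 7.75. Folds of different lists are not on 1 scale, so this mark cannot be told apart from a difference between lists. By percentile within its list ZNF576 stood at 96.5 in library 2a, 87.6 in 2b, 81.7 in 2c, 70.4 in 1a and 70.3 in 1c.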

How the results depend on the processing

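Of 94 alternatives for 10 results, 87 stayed within the counting interval, SD or count limit of the value reported, 7 moved beyond it and 0 changed direction. Some of these intervals were wide, so staying within one does not show a steady value. That of the pair of clusters ran from 11.4 to 54.5 points, and its fall from 34.5 to 14.5 without 2c counted as within. The share of chromosome 19 ZNF genes with a region was 16.7% after a peak threshold of −log10 p of 10, 21.95% with at least 4 libraries and 15.9% with all 5, and 22.4% to 26.0% without single libraries, lowest without 2c. Its difference from other chromosome 19 genes ran from −21.0 to −16.0 percentage points over all alternatives, and from all other genes from −8.71 to −6.04. The motif share was 48.2% with loops of 1 to 12 bases and 91.6% with runs of 2 or more G, and the island share 99.6% with looser islands. The gap between highest and lowest cluster was 66.5 to 80.0 percentage points, with 13 clusters at a gap of 250 kb and 9 at 1 Mb. Where it was 80.0 the lowest share was 0%. This was not the ZNF101 to ZNF254 cluster at a −log10 p of 10 or with all 5 libraries, where that cluster had 2.70% each time. Nor was it that cluster without 1a, 2a or 2c, where it had 13.5% each time. Without 1c the lowest share was 11.5%, again below the 13.5% of the ZNF101 to ZNF254 cluster. The lowest cluster thus changed between alternatives. A peak threshold of −log10 p of 7, the KRAB split (29.4 to 35.3 points) and the pair of clusters were alternatives or results added after seeing the data. Of 108 alternatives for the lowest percentile at 18 named genes, 15 moved by more than the SD between replicates. Unknown read depth and 2 biological replicates limit the precision. No paired analysis was possible because 1 condition was analysed.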
